A study of Homo sapiens with 8 samples.

Results

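Here 10 genes of the interleukin 6 receptor pathway were followed in 2 human hepatocellular carcinoma lines: IL6R, IL6ST, JAK1, JAK2, STAT3, SOCS1, SOCS2, SOCS3, CISH and PIM1. They were chosen by name, as all probe sets to which the array annotation gives exactly 1 of these symbols. This gave 32 probe sets for 10 genes, out of 44988 probe sets with 1 symbol for 18132 genes. RNA came from 3 groups of cultures, each with 2 arrays. The groups were Huh7.5.1 under CU27 at 10 μM, Huh7.5.1 given the solvent DMSO, and Hep3B (written Hep3b in the labels) given DMSO. All were collected at 48 h and are labelled as biological replicates, numbered 1 and 2 in Huh7.5.1 and 2 and 3 in Hep3B. CU27 is known here only by this code name. Each line is a single established cell line, so n = 2 counts cultures of that line. Columns labelled as CU27-treated Hep3B were left out, because each equals a linear combination of the Hep3B DMSO columns within 1e-06, so the action of CU27 in Hep3B was not analysed here.

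Interleukin 6 binds IL6R, and the pair then engages IL6ST (gp130), the signalling chain that several related cytokines share. Janus kinases such as JAK1 and JAK2, held on the inner part of the receptor, phosphorylate STAT3, which moves to the nucleus and switches on target genes. Among these are feedback inhibitors of the SOCS family and the kinase PIM1, and in liver cells the pathway is best known for driving acute phase proteins. CISH and SOCS2 are feedback inhibitors best known from growth hormone and STAT5 signalling.

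Signals are deposited values per probe set, taken as log2, so a difference of 1 is a doubling. A gene was tested where a group mean reached the floor of log2 6.11, the 50th percentile of all values. The probe set of highest mean over the 6 arrays stood for it. Calls are from limma at a Benjamini-Hochberg adjusted p of 0.05 over 11383 genes, and errors are limma standard errors. Of the 10 genes, 7 were tested. JAK2, SOCS1 and SOCS3 were not, because the probe sets that stand for them lay under the floor in all 3 groups. An array reads the RNA of a whole culture, so a change in the share of cells and a change in RNA per cell cannot be told apart.

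The arrays were of like brightness within Huh7.5.1, with medians of 6.26 and 6.25 under CU27 and 6.27 and 6.23 in DMSO, while Hep3B had 5.85 and 5.82. All 9 hepatocyte and fetal liver markers on the array reached the floor in every group. Of the leukocyte markers 2 of 7 did under CU27, 2 in Huh7.5.1 DMSO and 3 in Hep3B, and the pan-leukocyte gene PTPRC was at most 3.55 on any array. Stellate markers reached it for 1, 1 and 2 of 7 genes in the same order, and endothelial markers for 0, 1 and 0 of 6.

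Promoter sequence is shown for PIM1 and STAT3, whose rise with CU27 held in each alternative run, and for CISH, whose promoter held the STAT-type motif searched. Each is the 250 bases before the RefSeq start site in GRCh38.p14, written 5′ to 3′ on the strand of the gene. Capitals mark TTCNNNGAA, the spaced palindrome that STAT dimers recognise, which reads the same on both strands. The positions are PIM1 at chr6:37169902-37170151 on the plus strand, STAT3 at chr17:42388443-42388692 on the minus strand and CISH at chr3:50611775-50612024 on the minus strand.
PIM1: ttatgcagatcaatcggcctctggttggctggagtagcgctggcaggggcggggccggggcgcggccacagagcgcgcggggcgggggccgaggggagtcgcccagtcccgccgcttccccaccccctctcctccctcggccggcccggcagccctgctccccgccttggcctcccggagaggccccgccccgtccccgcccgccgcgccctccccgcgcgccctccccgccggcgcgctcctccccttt
STAT3: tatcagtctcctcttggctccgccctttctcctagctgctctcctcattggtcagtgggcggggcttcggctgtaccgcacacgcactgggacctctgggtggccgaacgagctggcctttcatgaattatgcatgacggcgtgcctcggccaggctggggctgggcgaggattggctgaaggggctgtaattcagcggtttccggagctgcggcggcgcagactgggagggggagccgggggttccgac
CISH: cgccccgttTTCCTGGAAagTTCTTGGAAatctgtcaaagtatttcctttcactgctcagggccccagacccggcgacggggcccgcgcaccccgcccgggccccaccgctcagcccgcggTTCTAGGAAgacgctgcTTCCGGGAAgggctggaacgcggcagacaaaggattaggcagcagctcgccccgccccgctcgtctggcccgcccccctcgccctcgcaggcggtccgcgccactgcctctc

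The motif was counted in windows of 300 bases, 250 before and 50 after each start, and 7.66% of 35116 windows in the genome table held at least 1 match. Of the members, 9 had windows in that table, 15 in all, and 1 of the 15 held a match. That window belongs to CISH and holds 4 matches, beginning 241, 230, 129 and 112 bases before the start, while 7 windows in the whole table hold 4 or more. A match is a run of letters and shows no binding. Absence of the letters from a window this short says nothing of the factor.

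**Figure D1:**
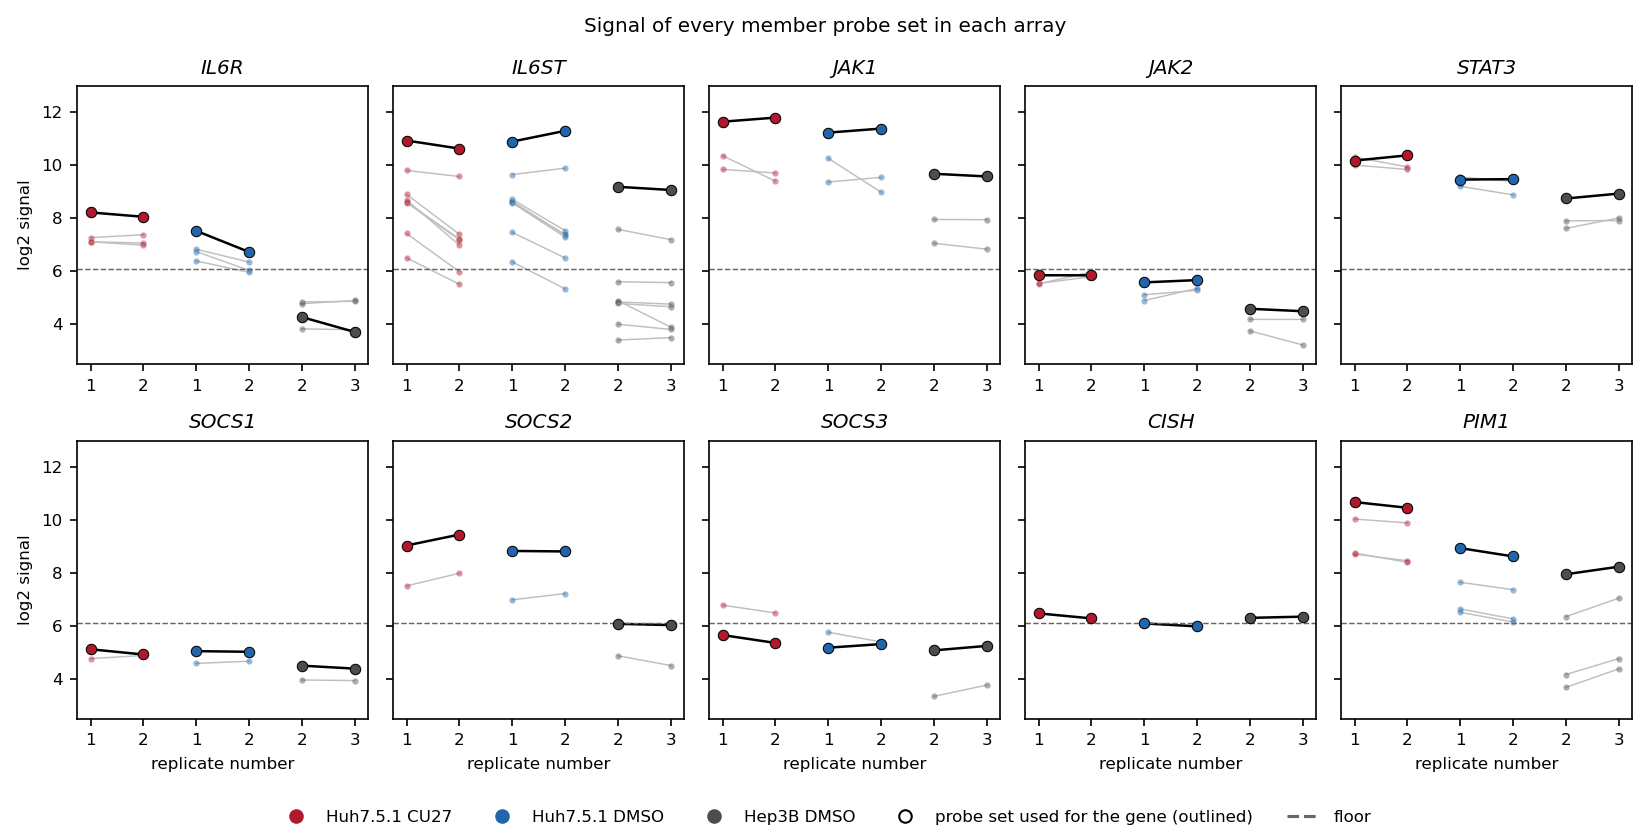
Log2 signal of every probe set of the 10 genes (vertical axes) on each array, by replicate number (horizontal axes), with Huh7.5.1 CU27 in red, Huh7.5.1 DMSO in blue and Hep3B DMSO in grey. Large outlined points are the probe set used for the gene and the dashed line is the floor of 6.11; PIM1 and STAT3 stand higher under CU27 than in DMSO at every probe set, and IL6R lies under the floor in Hep3B at all 4.

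Of the 7 tested pathway genes 4 rose with CU27 in Huh7.5.1 and 0 fell, the 4 being PIM1, IL6R, STAT3 and JAK1. PIM1, the serine/threonine kinase that STAT factors induce, rose 3.45-fold, and STAT3 rose 1.75-fold. IL6R, the cytokine-binding chain, rose 2.02-fold and JAK1 1.33-fold. IL6ST, the signalling chain, was not called. With CU27 replicate 2 or DMSO replicate 2 left out, 2 members were called higher, PIM1 and STAT3. Over all tested genes CU27 changed 24.7%, with 12.6% called higher and 12.1% called lower. Over probe sets, 22 of the 32 had both CU27 arrays above both DMSO arrays and 0 had both below. Among the 25 that reached the floor this was 17 and 0, and of all 25602 probe sets at that level 31.8% had both above and 31.4% both below. A fit over those probe sets called 12 of the 25 higher, where 10.5% of all probe sets were called higher. SOCS3 entered the fit only through its CU27 arrays, so these counts describe the members and are not a test of them.

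**Figure D2:**
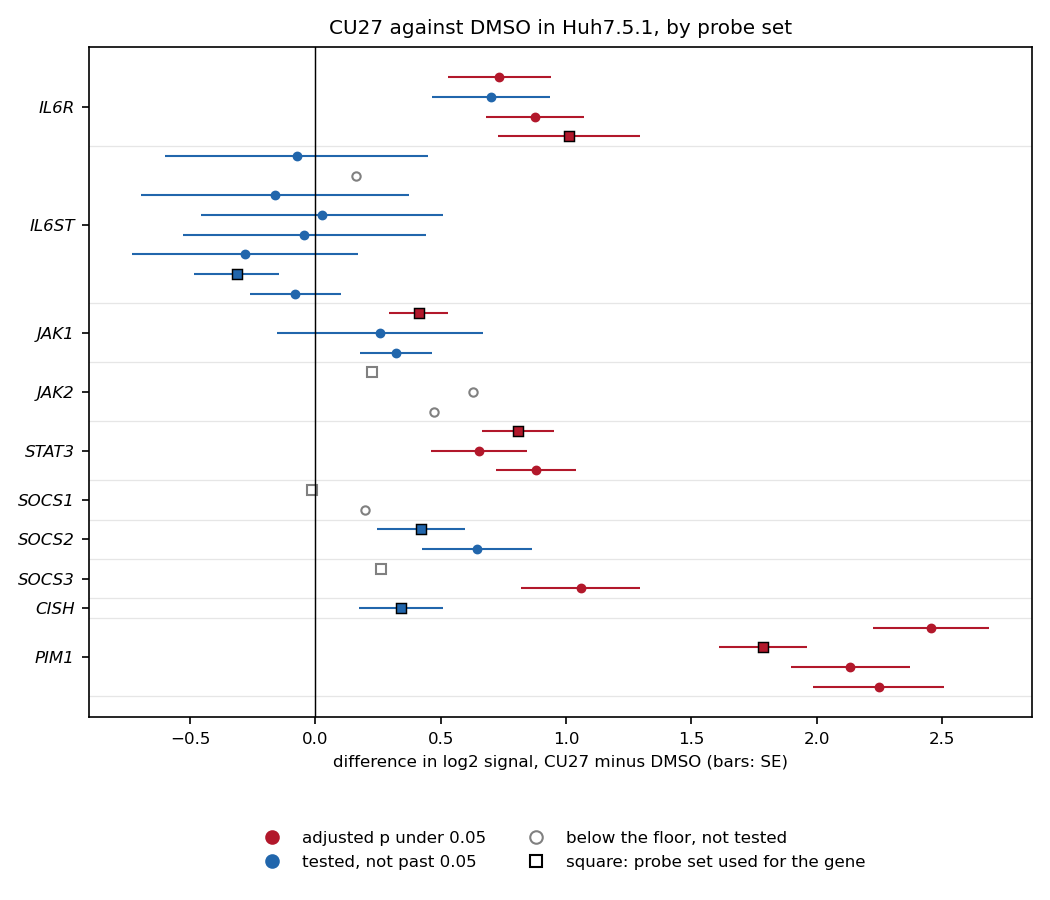
Difference in log2 signal between CU27 and DMSO in Huh7.5.1 (horizontal axis) for each probe set, grouped by gene, with bars of 1 SE. Red marks an adjusted p under 0.05, blue a tested difference past no threshold, open symbols probe sets under the floor and squares the probe set used for the gene; the 4 PIM1 probe sets lie between 1.79 and 2.46, and IL6ST between -0.31 and 0.16.

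Of the receptor chains, IL6R read 8.23 and 8.06 under CU27, against 7.53 and 6.73 in Huh7.5.1 DMSO. The groups did not overlap, although the DMSO replicates differed by 0.80, where the SD of that difference over all probe sets was 0.297. The difference was 1.01 ± 0.28 (SE, n = 2 per group, limma adjusted p = 0.0290). The other 3 IL6R probe sets differed by 0.70 to 0.87, and 3 of all 4 were called in the fit over probe sets. All 4 had both CU27 arrays above both DMSO arrays. With CU27 replicate 1 left out, IL6R no longer passed (0.93, adjusted p = 0.105), nor with CU27 replicate 2 out (1.09, limma adjusted p = 0.0922) or DMSO replicate 2 out (0.61, limma adjusted p = 0.199). The IL6R call was also lost when probe sets open to cross-hybridisation (suffix _x or _s) were left out (0.70, limma adjusted p = 0.0598). The probe set used for IL6R is of that kind, as are those used for PIM1, IL6ST and CISH. Without such probe sets PIM1 differed by 2.46 and IL6ST by -0.08, and CISH has no other probe set.

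IL6ST read 10.94 and 10.64 under CU27, against 10.90 and 11.31 in Huh7.5.1 DMSO, and the groups overlapped. The difference was -0.31 ± 0.17 (SE, limma adjusted p = 0.201). At each of the 8 IL6ST probe sets the CU27 and DMSO arrays overlapped, with differences from -0.31 to 0.16. The gap between replicates was large for many of these probe sets. In 4 of the 7 that reached the floor, replicate 1 exceeded replicate 2 by more than 1 log2 unit both under CU27 and in DMSO, as 86 of 25602 probe sets did (0.336%). One of them, for the transcript AB102801.1, read 8.69 and 6.99 under CU27, against 8.65 and 7.36 in DMSO. Another 2 IL6ST probe sets showed no such split, with replicate 1 minus replicate 2 of 0.30 and 0.23 under CU27, and -0.41 and -0.24 in DMSO. The gene-level value of IL6ST rests on the first of this pair. At the remaining 5 the CU27 difference carried a standard error of 0.45 to 0.53.

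**Figure D3:**
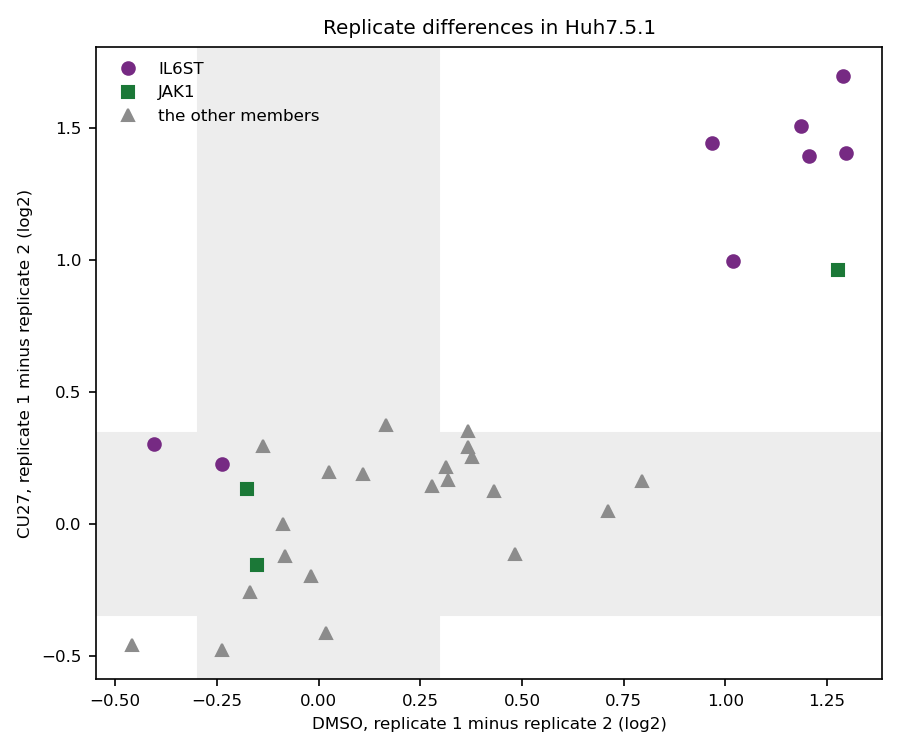
Replicate 1 minus replicate 2 in log2 signal for each probe set of the 10 genes in Huh7.5.1, under CU27 (vertical axis) and in DMSO (horizontal axis). Purple circles are IL6ST, green squares JAK1 and grey triangles the other members, and grey bands cover 1 SD over all 25602 probe sets (0.345 under CU27, 0.297 in DMSO); a group of IL6ST probe sets and 1 of JAK1 stand at the upper right.

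Among the kinases, JAK1 read 11.65 and 11.81 under CU27, against 11.24 and 11.39 in Huh7.5.1 DMSO. The groups did not overlap and the difference was small, 0.41 ± 0.11 (SE, n = 2 per group, limma adjusted p = 0.0306). A second JAK1 probe set differed by 0.32 without overlap, and the last by 0.26 with overlap. That last probe set showed the replicate split seen for IL6ST, with replicate 1 above replicate 2 by 0.96 under CU27 and 1.28 in DMSO. JAK1 lost its call when its probe sets were averaged (0.33, adjusted p = 0.158) and without the intensity trend (adjusted p = 0.0649). Nor did JAK1 pass with CU27 replicate 2 left out (0.34, adjusted p = 0.129), DMSO replicate 1 out (0.34, limma adjusted p = 0.175) or DMSO replicate 2 out (0.49, limma adjusted p = 0.0864). JAK2 was dim at all 3 of its probe sets, the brightest array standing at 5.98. Its CU27 arrays lay above its DMSO arrays at each, by 0.23, 0.63 and 0.47. With no filter on dim genes, JAK2 had a difference of 0.23 and an adjusted p of 0.360.

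STAT3, the transcription factor at the end of the cascade, read 10.18 and 10.38 under CU27, against 9.47 and 9.48 in Huh7.5.1 DMSO. Both treated cultures stood above both controls by more than the gap within either group. The difference was 0.81 ± 0.14 (SE, n = 2 per group, limma adjusted p = 0.00465). Another STAT3 probe set read 10.32 and 9.94 under CU27, against 9.56 and 9.40 in DMSO. The last read 10.02 and 9.85 under CU27, against 9.21 and 8.89 in DMSO. All 3 were called in the fit over probe sets, with differences of 0.65 to 0.88. STAT3 stayed past the threshold in 14 of 14 alternative settings, with adjusted p between 0.00211 and 0.0401.

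PIM1 showed the widest difference of the members. The probe set used read 10.68 and 10.46 under CU27, against 8.94 and 8.63 in Huh7.5.1 DMSO. The difference was 1.79 ± 0.17 (SE, n = 2 per group, limma adjusted p = 0.000612). The gap between groups was several times that between replicates, and it was wider at the other probe sets. One read 10.04 and 9.89 under CU27, against 7.65 and 7.37 in DMSO, a difference of 2.46, or 5.49-fold. The remaining PIM1 probe sets differed by 2.13 and 2.25. The call for PIM1 held in 14 of 14 alternatives, with values from 1.63 to 2.46 and adjusted p from 5.03e-05 to 0.00784.

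Of the feedback inhibitors, SOCS2 read 9.04 and 9.45 under CU27, against 8.83 and 8.82 in Huh7.5.1 DMSO. The groups did not overlap, yet the difference of 0.42 ± 0.17 (SE) did not pass (limma adjusted p = 0.0998). The CU27 replicates differed by 0.41, as much as the groups. A second SOCS2 probe set differed by 0.65 without overlap and was not called in the fit over probe sets (limma adjusted p = 0.0667). SOCS2 did pass with its probe sets averaged (0.53, adjusted p = 0.0498) and without CU27 replicate 1 (0.63, adjusted p = 0.0287). CISH read 6.48 and 6.29 under CU27, against 6.10 and 5.99 in Huh7.5.1 DMSO, close to the floor. Its difference of 0.34 ± 0.16 (SE) did not pass (limma adjusted p = 0.154), nor did it in any of 12 alternatives.

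SOCS3, the inhibitor that binds IL6ST itself, gave unlike readings at its probe sets. The one that stands for the gene read 5.66 and 5.36 under CU27, against 5.18 and 5.32 in Huh7.5.1 DMSO, all under the floor. A second probe set read 6.79 and 6.49 under CU27, against 5.77 and 5.40 in DMSO. Both treated cultures were above the floor there and both controls under it. The measured difference was 1.06 ± 0.24 (SE), which against the floor is at least 1.45-fold, and the fit over 25602 probe sets called it (limma adjusted p = 0.0159). SOCS1 was dim at both of its probe sets, at most 5.12 on any array. Its CU27 and DMSO arrays overlapped at the first, with a difference of -0.02, and did not at the second, with 0.20.

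Between the lines in DMSO, most pathway genes were higher in Huh7.5.1 than in Hep3B. Of the 7 tested members, 6 were called higher and 0 lower, with CISH not called. Such calls were common: 64% of all tested genes differed, 41% higher and 22.9% lower in Huh7.5.1. The Huh7.5.1 arrays were also brighter as a whole, by 0.42 at the array median, while the median difference of the tested genes was 0.22. With every array centred on its median, 4 members were called higher and 1 lower, against 23.2% and 40.8% of all tested genes, or 64% in either direction. Higher calls then made up 36.2% of all calls, in place of 64.1% on the deposited scale. Over probe sets, Huh7.5.1 lay above Hep3B without overlap at 30 of the 32 and below it at 1, and 24 of the 25 that reached the floor were called higher. Of all 25602 probe sets, 57.4% lay above and 27.7% below without overlap, and 44.7% were called higher. Of these 25, 13 reached the floor in Huh7.5.1 DMSO and not in Hep3B, 1 the other way round, and the SOCS3 probe set in neither line, so the count of calls describes the members and is not a test of them. Median-centred values stand beside the main ones. RNA integrity moved with the line. For ACTB, 3′ end probe sets exceeded 5′ end ones by 0.94 and 1.06 in Huh7.5.1 DMSO, against 2.28 and 1.60 in Hep3B. The part of RNA integrity in the differences between lines was not tested. Under CU27 the ACTB excess was 0.98 and 1.21, so replicate 2 had the larger excess in both Huh7.5.1 groups. Its part in the replicate splits of IL6ST and JAK1 was not tested.

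**Figure D4:**
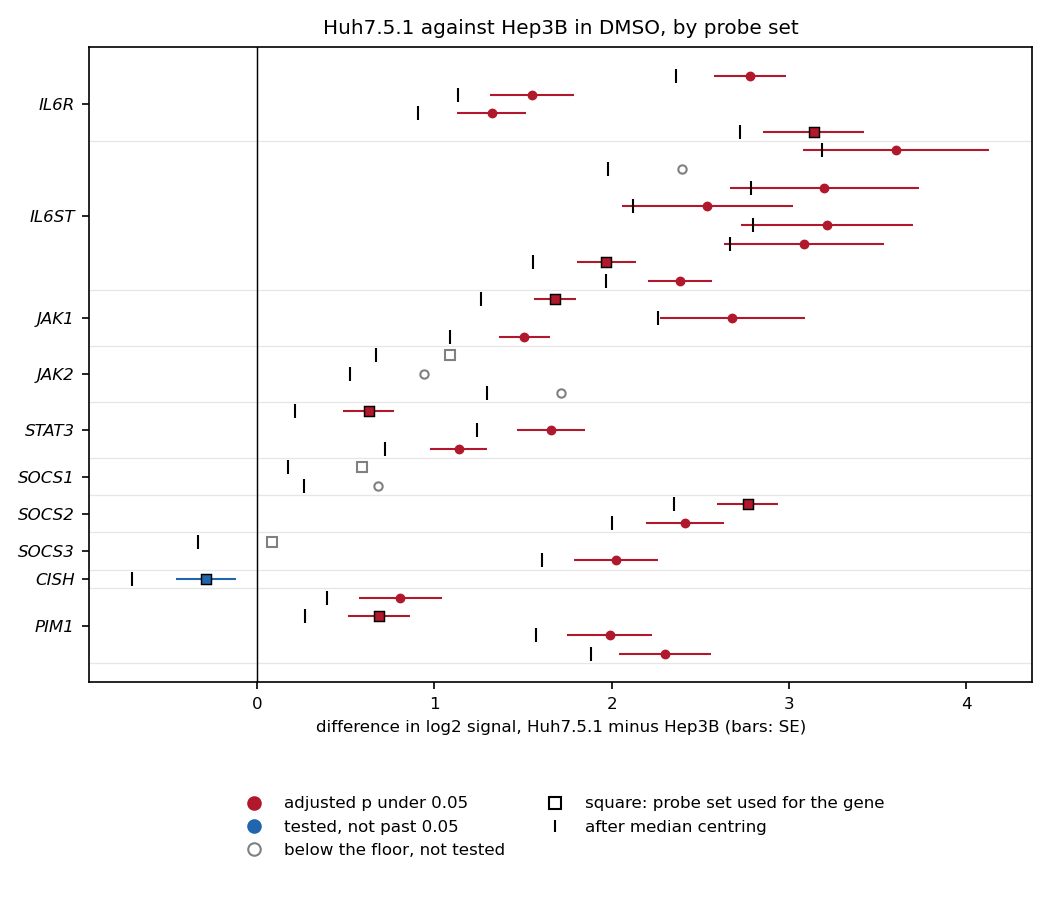
Difference in log2 signal between Huh7.5.1 and Hep3B in DMSO (horizontal axis) for each probe set, grouped by gene, with bars of 1 SE; vertical ticks give the value after median centring. Red marks an adjusted p under 0.05, blue a tested difference past no threshold, open symbols probe sets under the floor and squares the probe set used; CISH lies left of 0, and PIM1 spans 0.69 to 2.30.

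IL6R read 7.53 and 6.73 in Huh7.5.1, against 4.27 and 3.71 in Hep3B. All 4 IL6R probe sets lay under the floor in Hep3B, between 3.71 and 4.90, and reached it only through Huh7.5.1. The measured difference was 3.14 ± 0.28 (SE, n = 2 per group, limma adjusted p = 1.80e-05), or 2.72 after centring. Against the floor the probe set used for IL6R was at least 2.03-fold higher in Huh7.5.1 on the deposited scale. The other IL6R probe sets differed by 2.78, 1.55 and 1.32, or 2.37, 1.14 and 0.91 after centring. Their lower bounds against the floor were 1.40-fold, 1.22-fold and 1.05-fold on the deposited scale.

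IL6ST was well above the floor in both lines, at 10.90 and 11.31 in Huh7.5.1, against 9.19 and 9.07 in Hep3B. The difference was 1.97 ± 0.17 (SE, n = 2 per group, limma adjusted p = 1.32e-05), or 1.55 after centring. Its other 7 probe sets differed by 2.38 to 3.60, or 1.97 to 3.19 after centring. At 6 of those 7 Hep3B lay under the floor, so the measured size there depends on dim signals.

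JAK1 read 11.24 and 11.39 in Huh7.5.1, against 9.69 and 9.58 in Hep3B. The difference was 1.68 ± 0.11 (SE, n = 2 per group, limma adjusted p = 4.00e-06), or 1.26 after centring, and all 3 JAK1 probe sets were called higher. SOCS2 read 8.83 and 8.82 in Huh7.5.1, against 6.08 and 6.03 in Hep3B, where it stood just under the floor, so it was tested only through Huh7.5.1. Its measured difference was 2.77 ± 0.17 (SE, limma adjusted p = 2.01e-06), or 2.35 after centring. On the deposited scale the probe set used for SOCS2 was at least 6.57-fold higher in Huh7.5.1. That bound does not carry over to the centred scale, where the measured fold was 5.10. A second SOCS2 probe set read 4.87 and 4.51 in Hep3B and differed by 2.42, or 2.00 after centring. Its bound on the deposited scale was only 1.998-fold. JAK1, IL6ST, IL6R and SOCS2 kept their calls between lines in 13 of 13 alternatives.

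For STAT3 and PIM1 the difference between lines depended on the scale. STAT3 read 9.47 and 9.48 in Huh7.5.1, against 8.75 and 8.94 in Hep3B, a difference of 0.63 ± 0.14 (SE, n = 2 per group, limma adjusted p = 0.00357). After median centring it was 0.21 (adjusted p = 0.222) and was not called. Of 13 alternatives, median centring was the only 1 in which STAT3 lost its call, where PIM1 lost its call in 4. The other STAT3 probe sets differed by 1.66 and 1.14, or 1.24 and 0.72 after centring.

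PIM1 read 8.94 and 8.63 in Huh7.5.1, against 7.95 and 8.24 in Hep3B, a difference of 0.69 ± 0.17 (SE, n = 2 per group, limma adjusted p = 0.00664). After median centring it was 0.27 (adjusted p = 0.186), and after quantile normalization 0.40 (adjusted p = 0.0717). The PIM1 call was also lost without Huh7.5.1 DMSO replicate 1 (0.53, adjusted p = 0.0603) and without Hep3B replicate 2 (0.55, adjusted p = 0.0598). Of the other PIM1 probe sets 1 differed by 0.81, and 2, which lay under the floor in Hep3B, by 1.99 and 2.30. After centring the values were 0.39, 1.57 and 1.88.

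CISH ran the other way, at 6.10 and 5.99 in Huh7.5.1, against 6.31 and 6.35 in Hep3B. The groups did not overlap. The difference of -0.29 ± 0.16 (SE) was not called on the deposited scale (limma adjusted p = 0.142) and was called lower after median centring (-0.71, adjusted p = 0.00367). SOCS3 depended on the probe set again. The dim one that stands for the gene overlapped between lines, while the second read 5.77 and 5.40 in Huh7.5.1, against 3.34 and 3.77 in Hep3B, all under the floor. JAK2 and SOCS1 were dim in both lines, with Huh7.5.1 above Hep3B at each of their 5 probe sets on the deposited scale, by 0.59 to 1.71, and by 0.18 to 1.30 after median centring.

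The rest of the pathway was read from lists of genes by role. Interleukin 6 itself was dim, at 5.05 and 5.07 under CU27, against 5.25 and 5.15 in Huh7.5.1 DMSO, with 4.61 and 5.10 in Hep3B. The IL6 transcript was thus under the floor on all 6 arrays and was not tested. Of the 7 family cytokines on the array, 2 were tested, and neither IL27 nor LIF was called with CU27 (limma adjusted p = 0.570 and 0.787). ADAM10 and ADAM17, proteases that shed IL6R from the cell surface, were both tested and neither was called, with CU27 differences of -0.23 ± 0.17 and 0.18 ± 0.14 (SE).

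Among 16 tested receptors that also signal through JAK and STAT, 3 rose with CU27 and 4 fell, where 12.6% of all tested genes rose and 12.1% fell. The median of the list was 0.13, against 0.02 for all tested genes. EPOR reached the floor only through CU27, and PRLR and IL27RA only through Huh7.5.1 DMSO, so these 3 calls are descriptions. OSMR, which pairs with IL6ST to bind oncostatin M, read 8.98 and 9.20 under CU27, against 7.34 and 6.87 in Huh7.5.1 DMSO. The difference for OSMR was 1.98 ± 0.19 (SE, limma adjusted p = 0.000658), although its probe sets ranged from 0.14 to 1.98. EPOR, the erythropoietin receptor, was called higher (at least 1.15-fold, 0.93 measured), as was IFNGR2, an interferon gamma receptor chain (0.42). The hormone receptors GHR (-1.04), PRLR (-1.64, at least 2.48-fold lower) and LEPR (-0.99) fell, as did IL27RA (-0.94, at least 1.50-fold lower), the IL27 receptor chain that pairs with IL6ST. OSMR and PRLR kept their calls when any array was left out, and so did GHR, which lost its call when its 2 probe sets were averaged (-0.78, adjusted p = 0.0532). EPOR, IFNGR2, LEPR and IL27RA lost theirs without CU27 replicate 2 (adjusted p from 0.0741 to 0.153) and without DMSO replicate 2 (0.0533 to 0.150). IFNGR2, LEPR and IL27RA also lost theirs without DMSO replicate 1 (0.0829 to 0.147). The receptors that rose and fell then numbered 1 and 2 without either replicate 2, and 2 and 2 without DMSO replicate 1.

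Of 6 other JAK and STAT genes tested, STAT5A alone was called. It read 7.44 and 7.56 under CU27, against 6.62 and 6.72 in Huh7.5.1 DMSO, a rise of 0.83 ± 0.15 (SE, limma adjusted p = 0.00614). The list had a median of -0.01. Of 12 tested inhibitors, 3 rose and 2 fell, with a median of 0.14, where 12.6% of all tested genes rose and 12.1% fell. The phosphatase PTPN6 (0.66), PIAS4 (0.50), a SUMO ligase that restrains STAT factors, and SOCS5 (0.57) rose, while SOCS4 (-0.86) and the phosphatase PTPN11 (-0.61) fell. None of these 5 calls survived every omission of an array. PIAS4 and SOCS5 lost theirs when any 1 of the 4 Huh7.5.1 arrays was left out (adjusted p from 0.0565 to 0.176). PTPN6 did so without CU27 replicate 1 (0.0651) and DMSO replicate 2 (0.136), PTPN11 without CU27 replicate 2 (0.0718) and DMSO replicate 2 (0.133), and SOCS4 without CU27 replicate 2 (0.0603), DMSO replicate 1 (0.0511) and DMSO replicate 2 (0.0929). Without DMSO replicate 2, 0 inhibitors were called in either direction.

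**Figure D5:**
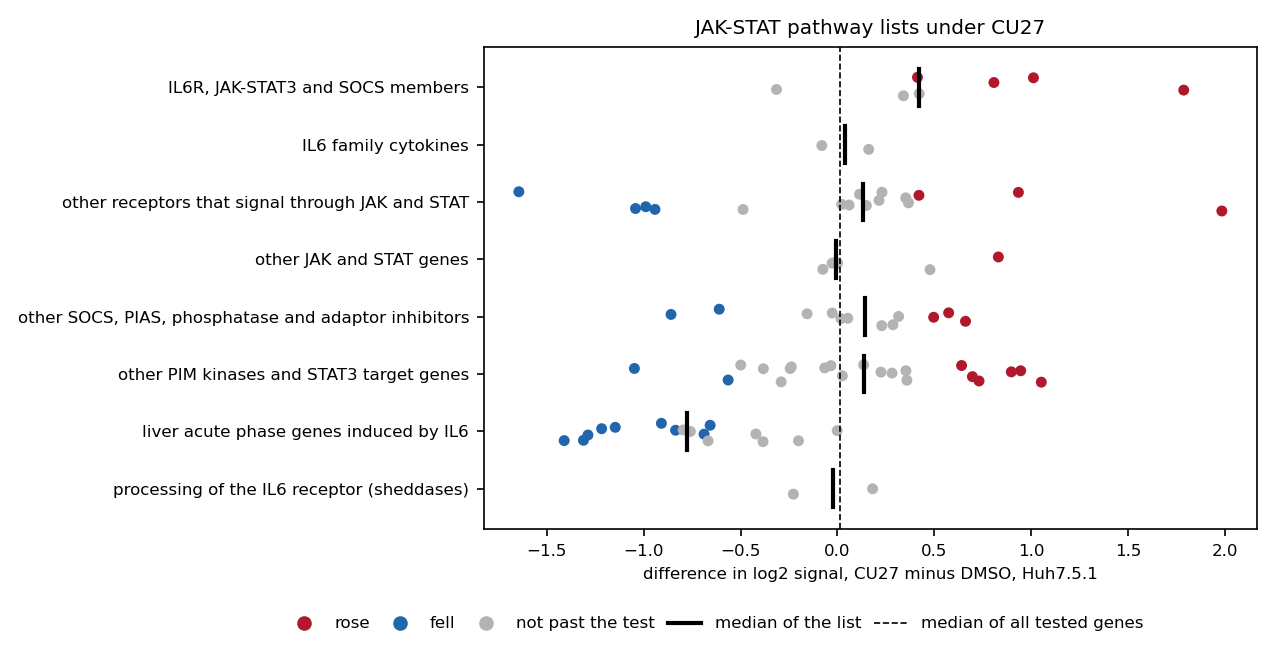
Difference in log2 signal between CU27 and DMSO in Huh7.5.1 (horizontal axis) for each tested gene of the 10 members and of 7 lists (rows), in red where it rose, blue where it fell and grey where it did not pass the test. Solid ticks are list medians and the dashed line is the median of all tested genes, 0.02; the acute phase list lies to the left, with a median of -0.78.

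Genes that STAT3 is known to control came next. Of 21 tested STAT3 targets and PIM kinases other than PIM1, 6 rose with CU27 and 2 fell, with a median of 0.13. Among all tested genes 12.6% rose and 12.1% fell, and a fall of 2 in 21 is near that share. The transcriptional repressor BCL6 rose by 0.95 ± 0.14 and IRF1, an interferon-response factor, by 0.90 ± 0.15 (SE, limma adjusted p = 0.00259 and 0.00378). The 5 BCL6 probe sets differed by 0.70 to 1.03 and the 3 of IRF1 by 0.36 to 0.90. TIMP1, a metalloproteinase inhibitor, was at least 2.02-fold higher (1.05 measured) and reached the floor only through CU27, and 1 of its 3 probe sets differed by -0.06. BCL3 rose by 0.70, and the PIM family members PIM2 and PIM3, counted but outside the naming rule, by 0.73 and 0.64. FGL1, a secreted liver protein, had a difference of -1.05 ± 0.19 and MYC one of -0.56 ± 0.13 (SE, limma adjusted p = 0.00545 and 0.0138). Without DMSO replicate 2, BCL3 (0.67) and MYC (-0.47) lost their calls. PIM2, PIM3 or both lost theirs in that run, and likewise without CU27 replicate 2 and without DMSO replicate 1. Neither was followed singly through the alternatives.

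The last list held liver acute phase genes that IL6 induces. Of 16 tested, 0 rose and 9 fell with CU27, where 12.6% of all tested genes rose and 12.1% fell. The median was -0.78, against 0.02 for all tested genes. ORM1, a plasma orosomucoid, read 11.70 and 11.41 under CU27, against 12.60 and 12.80 in Huh7.5.1 DMSO, a difference of -1.15 ± 0.13 (SE, limma adjusted p = 0.000842). ORM2, its close copy, differed by -1.29, and the 2 may share probes. SERPINA1, the protease inhibitor alpha-1 antitrypsin, differed by -0.66 and the heme carrier HPX by -1.41. HP, SERPINA3, FGG, SAA1 and C3 were the other 5 that fell, of which HP and SAA1 reached the floor only through Huh7.5.1 DMSO. The count that fell was 5 without CU27 replicate 2, 6 without DMSO replicate 1 and 4 without DMSO replicate 2. The summed signal of hepatocyte and fetal liver markers moved with this list, at log2 15.88 and 16.23 under CU27, against 16.46 and 16.52 in DMSO. SERPINA1 and FGB belong to both lists. Single markers differed with CU27 by amounts from -0.10 for ALB to -1.40 for AHSG, with APOB at -1.28 and TTR at -0.94. The part of these marker differences in the fall of the list was not tested.

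Genes with the most similar pattern to a member were found by root mean square distance over the 6 arrays, after centring each gene on its own mean, as a description. For PIM1 they were MYZAP (0.149), SP5 (0.159) and RRAGC (0.216), where the median distance to all tested genes was 1.02. MYZAP was tested only through its CU27 mean, which lay close to the floor. It read 6.18 and 6.07 under CU27, against 4.53 and 4.21 in Huh7.5.1 DMSO, with 3.92 and 3.86 in Hep3B. SP5 read 8.87 and 8.71 under CU27, against 7.30 and 7.09 in Huh7.5.1 DMSO, with 6.62 and 6.53 in Hep3B. For STAT3 they were SPIRE2 (0.0625), BCL3 (0.0763) and PANK3 (0.0769), with a median of 0.602. For IL6R they were ZNF844 (0.204), CLTRN (0.277) and CD55 (0.296), with a median of 1.69. CD55 read 11.07 and 10.99 under CU27, against 10.49 and 10.32 in Huh7.5.1 DMSO, with 6.95 and 6.48 in Hep3B.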

How the data were processed

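Gene expression was measured on Affymetrix 3′ arrays, 1 per culture, from biotin-labelled total RNA, per the labels. The authors deposited 1 value per probe set for 49395 probe sets and 8 columns, of which 6 were used. The deposited values were taken as log2 from their range. The submitters' processing notes list MAS5 without a version, and any scaling between arrays was not given in the sources used here. Probe sets were named from the platform annotation: 44988 carried 1 symbol, 1832 several and 2473 none, and 102 were controls. Scanner files were not analysed here.

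A linear model over the 6 arrays was fitted in limma 3.58.1 under R 4.3.3 (lmFit, then eBayes with trend), with 3 residual and 5.87 prior degrees of freedom. P-values are two-sided. Each gene was represented by its probe set of highest mean signal and tested where a group mean reached log2 6.11. A second fit covered 25602 probe sets. The procedure was tested on simulated data. Permutation was not used, since for 2 arrays against 2 its smallest exact p is 0.333. A fold against a group under the floor is a lower bound, taken against the floor. The number of arrays limits the precision. Promoter sequences are RefSeq's, GRCh38.p14.

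The members and lists were chosen with earlier results of these data known. All members were named. From each list, up to 4 genes past the test in each direction were named, by smallest p, with IL6 named regardless, and 3 nearest genes for each of the 3 called members with the largest CU27 difference. PIM2, PIM3, ADAM10, ADAM17, IL27, LIF and 5 further acute phase genes were named outside that rule, after their values were seen. Another gene under that rule is not reported here. Figures were drawn with matplotlib 3.10.9 in Python 3.11.15.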

Additional observations from a re-analysis of the deposited data

How the results depend on the processing

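Of the values for single genes, 0 reversed under the alternatives run. Median centring did turn the balance of calls between lines, with 36.2% of calls higher in place of 64.1%, and that of the receptors (3 higher and 6 lower) and acute phase genes (5 and 6). For CU27, 85 of 96 member values under alternatives kept their side of the threshold, 9 lost it and 2 gained it, and between lines 82 of 89 did, with 5 lost and 2 gained. Among list genes 279 of 313 CU27 values and 379 of 401 line values did. The count of genes changed by CU27 was 2809, between 893 (without DMSO replicate 2) and 2889 (without CU27 replicate 1) when an array was left out, with 1515 without CU27 replicate 2 and 1631 without DMSO replicate 1. Members called higher then numbered 2 to 4, and a lone array was assumed to vary like the other groups. A fit over probe sets called 5566 with CU27 and 16414 between lines, since it tests more features. The replicate numbers are not said to pair cultures, and replicate 1 minus replicate 2 correlated between CU27 and DMSO at 0.179 over genes and 0.316 over probe sets. With the number as a replicate block, 3526 genes were called, 4 of them members. Between lines, 8 members were called higher with no filter on dim genes, JAK2 and SOCS1 included, and 5 higher and 1 lower after quantile normalization, by which 43.8% of calls were higher. Other causes of lost calls were not tested. With 2 arrays a group and members near the floor, small differences of JAK2, SOCS1, SOCS3 and CISH are not resolved.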

Other observations

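A pair of IL6R probe sets held exactly the same value, 7.12, in CU27 replicate 1 and differed on the other arrays. The Hep3B DMSO columns held equal values at 1086 probe sets, of which 0 belonged to the members. The limma fit shares its estimate of spread between genes, and the effect of these equal values on it was not tested. A fit to the 4 Huh7.5.1 arrays alone called 2366 genes with CU27, with 4 members higher.

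CD68, a lysosomal glycoprotein used as a macrophage marker, rose with CU27. It read 8.86 and 9.34 under CU27, against 7.04 and 6.67 in Huh7.5.1 DMSO (2.25 ± 0.20, SE, limma adjusted p = 0.000394). The summed signal of the 7 leukocyte markers lay between log2 11.18 and 11.73 under CU27, and between 11.93 and 11.97 in Huh7.5.1 DMSO. LYZ, the only other of the 7 to reach the floor in Huh7.5.1, went the other way. It read 11.44 and 10.57 under CU27, against 11.86 and 11.83 in DMSO, a difference of -0.84. PTPRC stayed between 2.76 and 3.55 on all arrays.

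LIFR, which pairs with IL6ST to bind leukemia inhibitory factor, read 8.78 and 8.83 in Huh7.5.1 DMSO, against 2.61 and 2.62 in Hep3B, and was at least 6.48-fold higher on the deposited scale (limma adjusted p = 1.50e-08, measured difference 6.19, or 5.77 after centring). OSMR read 7.34 and 6.87 in Huh7.5.1 DMSO, against 3.46 and 3.63 in Hep3B (measured difference 3.56, or 3.15 after centring). The probe set used for OSMR was at least 2.00-fold higher in Huh7.5.1 on the deposited scale. Its tested probe sets ranged from 0.67 to 3.95 on that scale. Of 16 tested receptors of the list, 7 were called higher and 4 lower between lines, and after median centring 3 higher and 6 lower. Of 16 acute phase genes 8 were higher and 4 lower, or 5 and 6 after centring. Among all tested genes 41% were higher and 22.9% lower, or 23.2% and 40.8% after centring, so neither count is a result about its list. CP, the copper carrier ceruloplasmin, read 5.50 and 4.86 in Huh7.5.1 DMSO, against 9.77 and 9.70 in Hep3B, at least 12.4-fold lower in Huh7.5.1 on the deposited scale (-4.55 measured, or -4.97 after centring). FGB, the fibrinogen beta chain, read 13.21 and 13.17 in Huh7.5.1 DMSO, against 10.14 and 10.79 in Hep3B (2.73 ± 0.26, SE, limma adjusted p = 3.05e-05, or 2.31 after centring).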
